A study of Xenopus laevis with 13 samples.

Results

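Eukaryotic translation initiation factors were followed from the fertilized egg to the gastrula of *Xenopus laevis*, the African clawed frog. The members were all gene models whose name begins with eif and a digit, every copy included, without the eIF4E transporter eif4enif1, the Argonaute names that begin with eif2c and the eIF2 kinases that begin with eif2ak. This rule took 123 of 54110 gene models and 44 factor names. RNA had been sequenced from 5 single eggs, collected uncleaved 60 min after in vitro fertilization, from 5 single whole embryos at Nieuwkoop and Faber stage 10.5, the early gastrula, and from 3 technical libraries of stage 10.5. The labels call the last technical replicates without saying which RNA they share, so that they may stand for 1 replicate and are given as values. All came from in vitro fertilized eggs of a single female injected with human choriogonadotropin, and the labels name no other treatment. The p-values below therefore do not cover variation between females. Libraries of both stages were prepared as strand-specific, but those of embryos with another kit and an added enzyme step, so that stage and library preparation cannot be told apart.

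Initiation factors bring the ribosome to the start codon of an mRNA. eIF2, with GTP and the initiator tRNA, joins the small ribosomal subunit together with eIF1, eIF1A, eIF5 and the large scaffold eIF3, while eIF4E binds the mRNA cap, eIF4G bridges cap and ribosome and the helicase eIF4A unwinds the leader. The egg lives on stored mRNA and starts its own transcription only at the blastula stages, and the choice of which stored mRNAs are translated is made in large part at the cap. In *Xenopus* oocytes the eIF4E1b form is known from a complex that keeps stored mRNAs silent.

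Transcript levels are given in FPKM, sequenced fragments relative to transcript length (in kilobases) and library size. FPKM is a relative level rather than a number of molecules. A whole embryo holds many cells, and more cells of a type or more RNA per cell cannot be told apart. Depth, as reads recovered from the steps of the FPKM values, was 1505683 to 2922773 per egg library and 1366812 to 3817720 per embryo library. The technical libraries had 725942 to 1175474. Egg replicate 1 and embryo replicate 2 had near-equal recovered reads (1575176 and 1590325), but 1 read added 0.397 and 0.705 FPKM over 1 kilobase. The deposited FPKM are thus not scaled by the recovered reads alone, and the part of this scaling in small changes was not tested. The 5 most abundant gene models took 34.8% of the reads of egg replicate 5 and 1.51% to 2.81% of those of the other eggs, against 12% to 25.3% in embryos. As a check of the labels, 27 of 27 tested gene models of early zygotic genes were higher in embryos, with summed levels of 0.351 to 30.1 FPKM in eggs and 2519.8 to 3167 FPKM in embryos. A list of the egg's maternal store was less clear, with 8 of 17 tested gene models higher in eggs and 3 in embryos. It summed to 2277 to 3518 FPKM in eggs, 1970 to 2176 FPKM in embryos and 2324 to 2706 FPKM in the technical libraries. Markers of ovarian follicle cells, which surround the oocyte in the ovary, summed to 5.87 to 8.37 FPKM in eggs and 4.02 to 16.5 FPKM in embryos, with 13 of 15 gene models at 0 in all eggs. Blood markers summed to 107 to 139 FPKM in eggs and 25.8 to 45.9 FPKM in embryos, carried by few of their 12 gene models, of which 9 were at 0 in all eggs. The part of such RNA in the results was not tested.

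Of the 123 member gene models, 109 averaged 1 FPKM or more across the 10 single libraries and were tested, 9 were listed at 0 in all 13 libraries and the other 5 averaged less. With limma and adjustment over all gene models, 41 members were higher in embryos and 14 were higher in eggs at an adjusted p under 0.05. Over all 19373 gene models tested, 31.6% were higher in embryos and 25.2% were higher in eggs, 56.8% in all. The members thus had a share of 37.6% higher in embryos and 12.8% higher in eggs, and the 50.5% called in all was no higher than the background. Of the 55 called members, 47 kept the call when each of the 10 libraries was left out in turn and 0 changed sign, and without egg replicate 5 the counts were 41 and 15. In 42 of the 55, all technical libraries lay beyond every egg on the side of the embryos. The shares that match the 47 and the 42 over all called gene models were not worked out, so neither count describes a trait of the members. Over all 109 tested members the median log2 change (embryo minus egg, of FPKM + 1) was 0.33, beside 0.12 over all gene models. In 34 members every embryo lay above every egg and in 10 every embryo lay below, against 23.5% and 18.3% of all gene models tested.

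**Figure D1:**
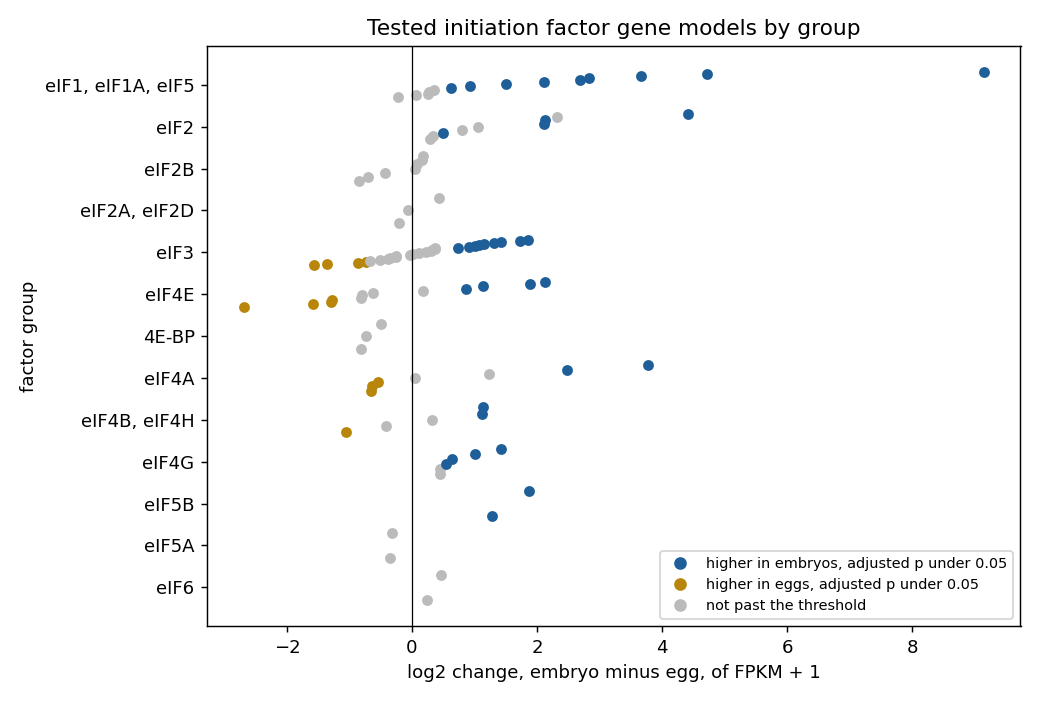
Log2 change from egg to embryo (x axis, FPKM + 1) of the 99 tested member gene models that the gene model file does not name as another gene, grouped by factor (y axis), 1 point per gene model. Points to the right of 0 are higher in embryos. The eIF2B row holds no coloured point, and the eIF4E row holds 4 gene models past the threshold on each side.

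The names need care. The expression table can give a gene model several names, and the gene model file names 11 of the members as another gene, among them 2 as ncl (nucleolin, listed with eif3a) and 1 each as rpl38, desi2 and ncbp1. Without these 11, 99 gene models were tested, of which 36 were higher in embryos and 12 in eggs. The gene model file leaves another 21 members unnamed. *X. laevis* is allotetraploid, and 27 of the 44 factor names have both an L and an S gene in the RefSeq table of the v10.1 assembly, so that short reads of many factors may fit either copy. A total of 46 members overlap another gene model on the opposite strand, and whether the counting used strand is not given in the sources used here. Gene models are therefore named below by factor and transcript length.

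Among the factors of scanning and start codon recognition, 9 of 14 tested gene models rose and none fell past the threshold, models of other genes left out, beside 31.6% and 25.2% of all gene models. Models on opposite strands of a locus are counted separately, so the 9 are not 9 separate loci. eIF5, which makes eIF2 hydrolyse its GTP once the start codon is found, rose from low levels in eggs in each of its tested gene models. The eif5 model of 1593 bases (scaffold 000034509, bases 1766677 to 1773844, plus strand, 10 exons) was measured at 9.7, 14.4, 6.74, 5.39 and 10.1 FPKM in the 5 eggs and at 54.6, 52.7, 66, 69 and 69 FPKM in the 5 embryos (log2 change 2.68, SE 0.23, adjusted p = 2.7e-06, limma). The technical libraries gave 89.6, 60.7 and 71.9 FPKM. The highest egg lay below the lowest embryo. The model of 1438 bases had 0, 0, 2.19, 1.09 and 6.24 FPKM in eggs and 28, 23.9, 20.9, 31.5 and 29.6 FPKM in embryos (log2 change 3.66, adjusted p = 6.5e-05, limma). A model of 1404 bases on the opposite strand of the same locus overlaps it and moved with it, from 1.38 ± 1.43 to 13.5 ± 2.71 FPKM (SD, n = 5 each, log2 change 2.83, adjusted p = 0.00012, limma). Whether reads of the 2 were told apart by strand is not known. A further model of 3004 bases is unnamed in the gene model file and carries the names eif5 and sccpdh.2, the second of which is no initiation factor. It stood at 0.142, 0.864, 1.91, 1.95 and 0.888 FPKM in eggs and 64.7, 45, 49, 61.3 and 45 FPKM in embryos (log2 change 4.72, adjusted p = 8.3e-08, limma).

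eIF1 and its relative eIF1B, small proteins that hold the ribosome in its scanning state, were among the most abundant members. The eif1b model of 529 bases had 593, 687, 882, 658 and 777 FPKM in eggs and 721, 638, 769, 813 and 776 FPKM in embryos, the highest egg level of any member, and the groups overlapped (log2 change 0.06, adjusted p = 0.76, limma). In the technical libraries it lay at 1532, 1339.6 and 1096 FPKM, above all 5 embryos, which gave a log2 change of 0.88 from the eggs. Of the eif1 models, that of 1437 bases rose from 128 ± 46.5 to 234 ± 25.4 FPKM (log2 change 0.92, adjusted p = 0.0033, limma), and that of 1167 bases on another scaffold had 134 ± 28 and 164 ± 38.3 FPKM (log2 change 0.27, adjusted p = 0.25, limma). A model of 2423 bases, on the other strand of the first and listed also as dusp11, went from 1.43 ± 0.651 to 9.3 ± 1.86 FPKM (log2 change 2.12, adjusted p = 3.4e-05, limma). A minus-strand eif1 model of only 155 bases, next to the plus-strand model of 1167 bases on scaffold 000075417, was listed at 0, 0, 156, 119 and 0 FPKM in eggs and 3989, 3498, 4611, 4445 and 3700.0 FPKM in embryos (log2 change 9.14, adjusted p = 0.00027, limma). It held 33 recovered reads over all eggs and 2357 over all embryos. At its short length each read adds a large FPKM at both stages, and the eggs at 0 enlarge the log2 change. Summed by name, eif1 rose by 3.81 log2 units with this model and by 0.57 without gene models under 300 bases, with adjusted p of 7.6e-08 and 0.012 (limma).

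eIF1A, which works with eIF1 at the start codon, is encoded by the eif1ax models. That of 440 bases rose from 71.3 ± 14.9 to 109 ± 7.47 FPKM (log2 change 0.63, adjusted p = 0.0068, limma), while those of 572 and 276 bases, neighbours on 1 scaffold, overlapped between stages with log2 changes of 0.35 and 0.26. The model of 572 bases passed without egg replicate 1 (adjusted p = 0.029, limma). The eif1ad model, of an eIF1A domain protein, had 21.3, 15.4, 5.56, 8.03 and 18.1 FPKM in eggs and 42.6, 29.8, 17.6, 40.9 and 71.9 FPKM in embryos (log2 change 1.51, adjusted p = 0.0083, limma). Embryo replicate 5 was the highest embryo, and the technical libraries at 118, 72.4 and 90.04 FPKM lay higher still. The strongest fall carrying an eif1ax name belonged to the model of 1003 bases, which the gene model file calls rpl38, a ribosomal protein, and which went from 23.8 ± 14.2 to 2.06 ± 0.997 FPKM (log2 change -2.83, adjusted p = 0.00021, limma). Likewise the falling eif1 model of 1350 bases is named desi2 there (log2 change -1.40, adjusted p = 0.0022, limma).

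eIF2 carries the initiator tRNA and has 3 subunits. Its beta subunit eif2s2, the contact of eIF5 and eIF2B on the complex, passed as higher in embryos in 3 of its 4 models. The model of 1186 bases (scaffold 000045782, bases 285165 to 297970, minus strand, 9 exons) had 8.01, 7.03, 5.37, 6.36 and 9.17 FPKM in eggs and 34.6, 27.9, 29, 34.7 and 48.3 FPKM in embryos (log2 change 2.12, SE 0.20, adjusted p = 4.4e-06, limma). A different locus on scaffold 000045834 is split into 3 models. That of 704 bases held 1 recovered read over the 5 eggs and 154 over the 5 embryos, an embryo to egg ratio of 172 with an exact 95% counting interval of 30.4 to 6843, and its embryos lay at 19.6, 27.3, 12.5, 34.9 and 29.2 FPKM (log2 change 4.41, adjusted p = 4.9e-07, limma). The model of 622 bases had 20.1, 8.28, 0, 1.06 and 6.87 FPKM in eggs and 17.5, 20.2, 18, 17.3 and 33.2 FPKM in embryos (log2 change 2.11, adjusted p = 0.022, limma). This call was lost without egg replicate 4 or without embryo replicate 5 (adjusted p of 0.056 for both, limma). The technical libraries gave 21.5, 3.54 and 0.834 FPKM, a log2 change of 0.19 from the eggs, on 11 recovered reads in all. The last model, of 113 bases, was at 0 in 9 of the 10 single libraries and at 38 FPKM in embryo replicate 1. The expression table also lists the oocyte elongation factor name 42sp50 with the models of 622 and 704 bases, and slc5a8 with that of 1186 bases, but the gene model file names all of them eif2s2.

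The alpha subunit eif2s1, whose phosphorylation shuts initiation down, had no call with all libraries. Summed over its 2 models it had 40.8 ± 24.8 FPKM in eggs and 60.5 ± 18.3 FPKM in embryos (log2 change 0.66, adjusted p = 0.084, limma on sums by name). Its model of 1232 bases had 20.4, 18.1, 33, 14.6 and 24.5 FPKM in eggs and 24.1, 31.5, 26.1, 29.6 and 24.6 FPKM in embryos (log2 change 0.33, adjusted p = 0.20, limma), and of the libraries left out singly only egg replicate 3 made it pass (adjusted p = 0.036), as did leaving out egg replicates 3 and 5 together (adjusted p = 0.017). A short model of 307 bases ranged from 0 to 70.1 FPKM among eggs and did not pass (log2 change 2.31, adjusted p = 0.077, limma), except without egg replicate 4 (adjusted p = 0.0083) and with the replicate block (0.034). The gamma subunit eif2s3, which binds GTP and the tRNA, rose slightly in its model of 1623 bases, from 17.1, 17, 17.6, 15.6 and 11.9 FPKM in eggs to 23.1, 18.8, 27.5, 20.4 and 23.2 FPKM in embryos (log2 change 0.49, adjusted p = 0.025, limma). That call was lost without egg replicate 5, embryo replicate 1 or embryo replicate 3 (adjusted p of 0.052 to 0.058), and with the replicate block (0.052). The model of 1682 bases had 15.1 ± 6.53 and 24.8 ± 3.77 FPKM (log2 change 0.80, adjusted p = 0.052, limma), and passed without egg replicate 1, 2 or 3 (adjusted p of 0.030 to 0.050) and with the replicate block (0.044). That of 570 bases, on the opposite strand of the first, had 24 ± 15.9 and 19.2 ± 8.03 FPKM (log2 change 0.30, adjusted p = 0.79, limma). Its mean fell although this log2 change is positive, since egg replicate 3 was at 0 and the other eggs at 21.8 to 44.4 FPKM. The merged profiles gave a log2 change of -0.50.

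eIF2B, the exchange factor that recharges eIF2 with GTP and the target of eIF2 phosphorylation, had no call. Of the 7 tested models of its 5 subunits 0 passed the threshold with limma, beside 56.8% of all gene models. Of the same 7, 0 had an unadjusted p under 0.05, and their log2 changes ran from -0.85 to 0.17 with a lowest adjusted p of 0.12. The catalytic subunit eif2b5 was measured at 9.01, 8.47, 4.94, 7.07 and 12.5 FPKM in eggs and 7.1, 9.9, 10.9, 9.18 and 9.33 FPKM in embryos. It was the lowest subunit in eggs, with eif2b4 next at 8.74 ± 7.89 FPKM, and the 2 did not differ beyond their spread. In embryos eif2b4 was the lowest at 3.39 ± 0.803 FPKM, and without egg replicate 2 its fall passed (log2 change -1.18, adjusted p = 0.021). The highest subunit at both stages was eif2b1, at 38.1 ± 28.6 FPKM in eggs and 20.4 ± 8.89 FPKM in embryos over its 2 models, of which egg replicate 3 alone held 88.2 FPKM. A model listed as gtf2h3 and eif2b1, and named gtf2h3 in the gene model file, was higher in embryos (log2 change 0.62, adjusted p = 0.012, limma). The factors eIF2A and eIF2D, which can bring tRNA to the ribosome without eIF2, had 3 models and 0 calls (limma), beside 56.8% of all gene models. Their lowest adjusted p was 0.16, and 0 had an unadjusted p under 0.05. The eif2d model passed without egg replicate 1 (adjusted p = 0.036).

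**Figure D2:**
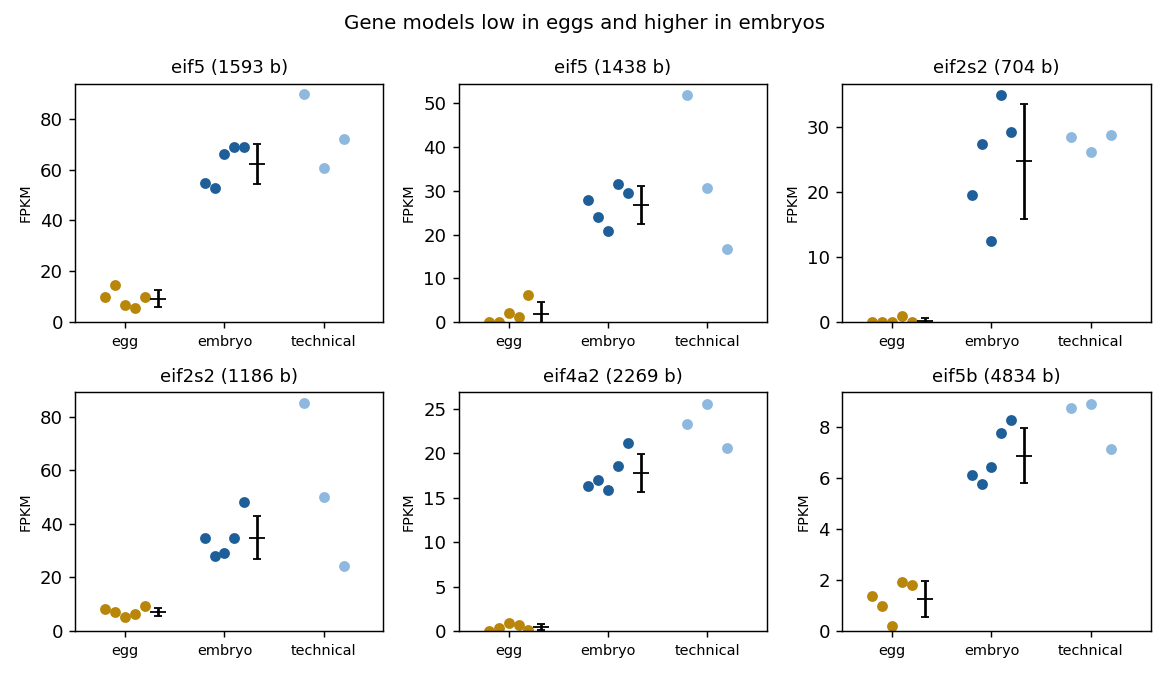
FPKM (y axis, from 0) of 6 gene models in each egg, each embryo and each technical library of stage 10.5, 1 point per library, with the mean and SD of the 5 eggs and the 5 embryos beside the points. In all 6 panels every embryo lies above every egg, and the eif2s2 model of 704 bases has a single read among all eggs.

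eIF5B, the GTPase that joins the large subunit at the end of initiation, was low in eggs and rose in both of its copies. The model of 4834 bases had 1.37, 0.97, 0.193, 1.91 and 1.81 FPKM in eggs and 6.11, 5.78, 6.44, 7.78 and 8.27 FPKM in embryos (log2 change 1.86, SE 0.26, adjusted p = 0.00011, limma). The model of 3909 bases had 0.321, 0, 0.241, 0.184 and 1.26 FPKM in eggs and 2.54, 1.52, 1.59, 2.66 and 3.3 FPKM in embryos (log2 change 1.27, adjusted p = 0.0025, limma). Both stayed below 10 FPKM in every single library, which is low among the members. eIF6, which keeps the large subunit from joining too early, was abundant instead, and its model of 604 bases was among the 5 highest members in embryos. This model had 152, 215, 321, 172 and 210.2 FPKM in eggs and 279.5, 300.5, 281, 266 and 300.2 FPKM in embryos (log2 change 0.46, adjusted p = 0.055, limma), and it passed without egg replicate 3 (adjusted p = 0.0035). The sum of both eif6 copies changed by 0.39 log2 units (adjusted p = 0.040, limma on sums by name). That call was lost without 1 of 8 libraries in turn (adjusted p up to 0.10) and with the replicate block (0.054). eIF5A, which helps the ribosome over difficult peptide bonds and is known for its hypusine residue, had 146, 139, 175, 134 and 133 FPKM in eggs and 129, 109.6, 95.4, 106 and 129 FPKM in embryos in its larger model. Every embryo lay below every egg, and the adjusted p was 0.052 with a log2 change of -0.35, while the technical libraries at 154, 126 and 167 FPKM lay among the eggs or below. It passed without embryo replicate 1 or embryo replicate 5 (adjusted p of 0.035 to 0.050).

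The cap-binding family held the largest fall of any model named as an initiation factor. Of its 12 tested models 4 were higher in embryos and 4 in eggs, or 33.3% each, beside 31.6% and 25.2% of all gene models. eIF4E3, a family member that binds the cap in an unusual way, fell. Its model of 1014 bases (scaffold 000034527, bases 1028753 to 1047490, plus strand, 6 exons) was measured at 234, 247, 289, 245 and 198 FPKM in eggs and 36.9, 37.3, 49.6, 38.1 and 25.4 FPKM in embryos, with no overlap (log2 change -2.68, SE 0.18, adjusted p = 3.8e-07, limma). In eggs the mean was 6.48 times that in embryos, and the technical libraries were at 33.3, 53 and 56.3 FPKM. The second copy, of 678 bases (scaffold 000013523, bases 1383854 to 1393285, minus strand, 6 exons), fell from 53.4, 29.8, 39.5, 54.5 and 38.6 FPKM to 14.5, 8.9, 15.7, 16.8 and 12.9 FPKM (log2 change -1.58, adjusted p = 9.4e-05, limma). Another model of 889 bases lies beside it on the other strand and had 13.3 ± 6.23 and 6.68 ± 1.91 FPKM (log2 change -0.80, adjusted p = 0.059, limma), passing without egg replicate 3 or egg replicate 4 (adjusted p of 0.012 to 0.036). A model of 3518 bases listed as eif4e3 and ncbp1 is ncbp1, a subunit of the nuclear cap-binding complex, in the gene model file, and went the other way, from 39.3 ± 6.17 to 76.9 ± 6.48 FPKM (log2 change 0.96, adjusted p = 0.00018, limma).

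eIF4E itself, the general cap-binding protein, rose. The eif4e model of 2448 bases (scaffold 000007144, bases 1412921 to 1429088, plus strand, 7 exons) had 14.1, 12.4, 14.3, 12.9 and 10.7 FPKM in eggs, within a narrow range, and 51.2, 57.4, 37, 61.4 and 107 FPKM in embryos (log2 change 2.12, SE 0.24, adjusted p = 2.4e-05, limma). Embryo replicate 5 was the highest of the embryos, and without it the call remained. The other locus carries a plus-strand model of 3073 bases and an unnamed minus-strand model of 1518 bases that overlap. The first had 1.87 ± 1.44 and 4.67 ± 0.954 FPKM (log2 change 1.14, adjusted p = 0.020, limma) and the second 11.5 ± 6.21 and 37.6 ± 12.2 FPKM (log2 change 1.89, adjusted p = 0.0085, limma). Whether reads of the overlapping models were told apart by strand is not known.

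The 2 copies of the oocyte form eIF4E1b changed in balance. Its model of 764 bases (scaffold 000005925, bases 10220600 to 10234934, plus strand, 7 exons) had 12, 12.9, 7.96, 26.1 and 18.3 FPKM in eggs and 3.28, 6.28, 2.66, 4.17 and 16.1 FPKM in embryos (log2 change -1.28, adjusted p = 0.022, limma). This call was lost without egg replicate 4 or 5 or embryo replicate 1, 3 or 4 (adjusted p of 0.051 to 0.058, limma). The model of 763 bases (scaffold 000100253, bases 2108295 to 2132916, minus strand, 7 exons) had 29, 34, 29.5, 35.9 and 23.9 FPKM in eggs and 34.1, 23.9, 22.6, 43.5 and 59.2 FPKM in embryos (log2 change 0.18, adjusted p = 0.56, limma). Embryo replicate 5 was the highest embryo in both, and the technical libraries gave 10.3, 14.7 and 10.4 FPKM and 74.2, 82.7 and 58.9 FPKM in the same order. With the technical libraries in place of the embryos, the log2 change was 1.21 for the model of 763 bases and -0.28 for that of 764 bases. The share of the model of 764 bases in the pair was 32.7% (21.2% to 43.4%) in eggs and 14% (8.76% to 21.3%) in embryos, the mean with the lowest and highest library. The test of the balance itself passed (difference between the copies' log2 changes -1.46 log2 units, SE 0.37, adjusted p = 0.0088, limma), and it did so without each library in turn, with adjusted p of 0.0046 to 0.026.

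eIF4E2, also called 4EHP, binds the cap without recruiting eIF4G and is known as a repressor. Its model of 6478 bases rose from 11.8, 5.78, 14.1, 9.28 and 7.98 FPKM in eggs to 18.4, 20.6, 21.1, 15.1 and 15.2 FPKM in embryos (log2 change 0.86, adjusted p = 0.0069, limma). An unnamed model of 1268 bases listed with eif4e2 fell from 7.07, 6.49, 4.61, 6.4 and 3.8 FPKM to 1.73, 1.98, 1.4, 0.879 and 2.72 FPKM (log2 change -1.29, adjusted p = 0.00084, limma). The remaining models, of 2588 and 674 bases, had log2 changes of -0.63 and -0.81 (adjusted p = 0.069 and 0.45, limma). That of 2588 bases passed without egg replicate 3 or embryo replicate 2 (adjusted p of 0.022 to 0.046).

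Read as shares of the FPKM summed over the 12 family models, eif4e3 held 74.9% of the family in eggs (72.3% to 77.3%) and 26.2% in embryos (14.2% to 36.9%). The share of eif4e went from 6.63% (4.47% to 8.34%) to 44.3% (37% to 54.6%). The ranges of eggs and embryos did not touch for either form, and in the technical libraries eif4e held 40.6% to 56.9%. The whole family summed to 344 to 433 FPKM in eggs and 195 to 313 FPKM in embryos. These shares include the overlapping antisense model of eif4e.

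**Figure D3:**
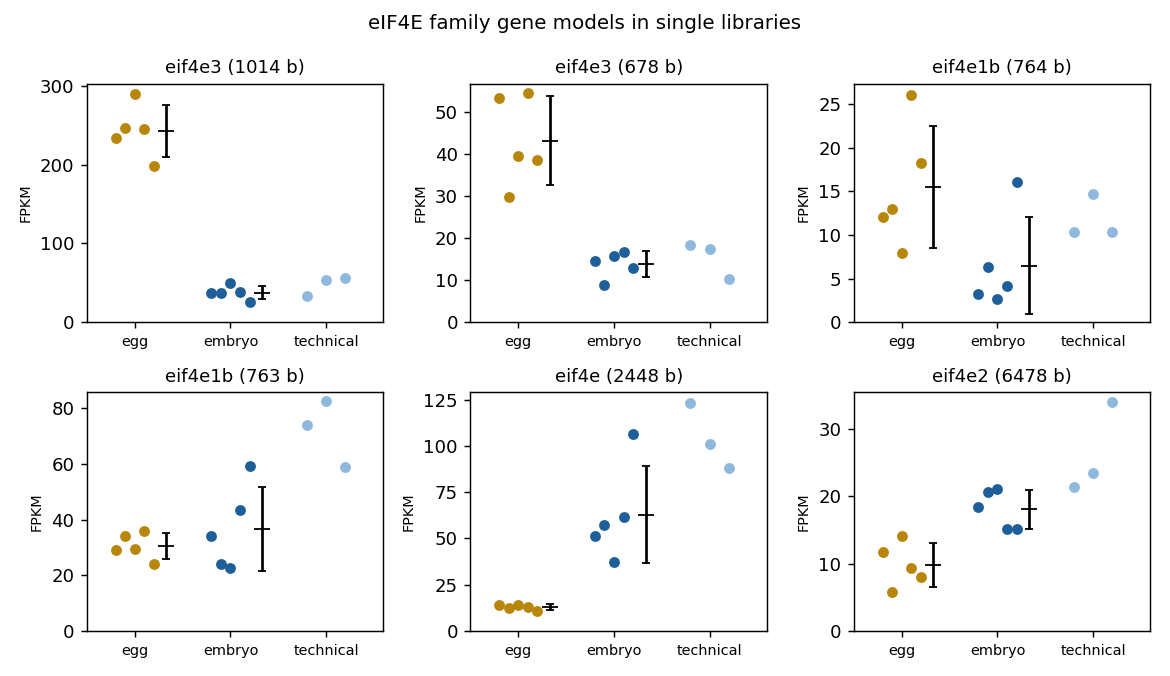
FPKM (y axis, from 0) of 6 gene models of the eIF4E family in each egg, embryo and technical library, 1 point per library, with the mean and SD of the 5 eggs and the 5 embryos. Both eif4e3 copies are higher in every egg than in any embryo, the eif4e model of 2448 bases is the reverse, and the 2 eif4e1b copies differ from each other.

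The 4E-BP proteins block eIF4E by taking the place of eIF4G. A single one, eif4ebp2, was found among the names, with 3 models. That of 1303 bases had 13.7, 5.03, 11, 4.03 and 5.09 FPKM in eggs and 3.97, 3.2, 5.42, 3.83 and 2.05 FPKM in embryos (log2 change -0.81, adjusted p = 0.056, limma). That of 1591 bases had 8.86, 13.2, 3.86, 19.1 and 5.15 FPKM in eggs and 4.81, 4.57, 6.44, 5.06 and 3.48 FPKM in embryos (log2 change -0.74, adjusted p = 0.10, limma). Neither passed alone, and the first did so without egg replicate 2, egg replicate 4 or embryo replicate 3 (adjusted p of 0.031 to 0.050) and with the replicate block (0.032), and the second without egg replicate 3 (adjusted p = 0.022). The remaining model, of 452 bases, was at 0 in 2 eggs and 2 embryos (log2 change -0.50, adjusted p = 0.55, limma). Summed by name, eif4ebp2 fell by 0.90 log2 units (adjusted p = 0.024, limma), a sum that leaves out the model of 1591 bases, whose first name is another. With the names of the gene model file, which join the models of 1303 and 1591 bases, it fell by 0.95 (adjusted p = 0.0050). The first of these calls was lost without egg replicate 1, embryo replicate 1 or embryo replicate 2 (adjusted p of 0.058 to 0.063).

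Among the helicases, eIF4A1 was the most abundant form at both stages and eIF4A2 rose. eIF4A1 unwinds mRNA leaders as part of the cap-binding complex. Its model of 1222 bases had 305, 327, 418, 307 and 223 FPKM in eggs and 235, 214, 238, 234 and 158 FPKM in embryos (log2 change -0.54, adjusted p = 0.028, limma), and the call was lost without egg replicate 2, egg replicate 3 or embryo replicate 5 (adjusted p of 0.055 to 0.060). The second locus is split into a model of 2008 bases, with 411, 287, 240.0, 251 and 173 FPKM in eggs and 168, 167, 161, 206 and 133 FPKM in embryos (log2 change -0.66, adjusted p = 0.022, limma), and a model of 581 bases beside it, with 295 ± 44.5 and 303 ± 36.2 FPKM (log2 change 0.04, adjusted p = 0.82, limma). The call of the model of 2008 bases was lost without embryo replicate 5 (adjusted p = 0.051). All 3 were among the 5 highest members in eggs, and eif4a1 held 94.8% to 96.4% of the family's FPKM in eggs and 91.3% to 93% in embryos. That share counts both models of the split locus.

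eIF4A2, a close relative of eIF4A1, was near 0 in eggs. The model of 2269 bases (scaffold 000030987, bases 3530256 to 3540501, plus strand, 12 exons) had 0, 0.335, 0.864, 0.659 and 0.15 FPKM in eggs and 16.4, 17, 15.9, 18.6 and 21.2 FPKM in embryos (log2 change 3.78, SE 0.22, adjusted p = 8.9e-08, limma). These values rest on 11 recovered reads over the eggs and 459 over the embryos. A model of 748 bases directly downstream had 0 reads in all eggs and 31 over the embryos, which is at least 11.6-fold higher in embryos when eggs are set at 3 reads over the group. eIF4A3, the helicase of the exon junction complex, had 40.1, 40.00, 22.3, 43.6 and 33.7 FPKM in eggs and 19.9, 21.4, 19.98, 26.8 and 23.5 FPKM in embryos in its model of 1024 bases (log2 change -0.64, adjusted p = 0.016, limma). Its model of 657 bases had 6.24 ± 5.13 and 11.7 ± 3.51 FPKM (log2 change 1.23, adjusted p = 0.10, limma) and passed without egg replicate 3 (adjusted p = 0.040). Models of 793 bases (eif4a1), 40 bases (eif4a2) and 912 bases (eif4a3) were listed at 0 in every library.

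eIF4B and eIF4H, RNA-binding proteins that stimulate eIF4A, each had copies that differed in their change. The eif4h model of 711 bases (scaffold 000166365, bases 2079607 to 2095792, minus strand, 7 exons) fell from 99.9, 146, 157, 138 and 107 FPKM in eggs to 61.6, 62.4, 88.1, 46.1 and 54.5 FPKM in embryos (log2 change -1.05, adjusted p = 0.00086, limma). The model of 965 bases (scaffold 000114601, bases 145481 to 165016, plus strand, 7 exons) rose from 8.33, 6.35, 5.27, 11.6 and 6.94 FPKM to 18.4, 18.5, 18.6, 17.2 and 15.6 FPKM (log2 change 1.14, adjusted p = 0.00048, limma). Neither showed overlap between stages, and the model that fell stayed the more abundant copy in every library. The eif4b model of 2883 bases rose from 4.79 ± 2.31 to 10.9 ± 2.06 FPKM (log2 change 1.11, adjusted p = 0.0051, limma), while that of 1698 bases had 10.6 ± 3.82 and 7.35 ± 0.476 FPKM (log2 change -0.42, adjusted p = 0.14, limma) and passed only without egg replicate 4 (adjusted p = 0.044).

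The eIF4G scaffolds were higher in embryos where they passed. eIF4G2, a form that lacks the eIF4E-binding part and acts apart from the cap, made up 84.2% to 90.9% of the family's FPKM in eggs and 88.6% to 91% in embryos. Its model of 4494 bases had 35, 40.8, 48, 43.1 and 41.3 FPKM in eggs and 68.7, 63, 83.9, 65.1 and 48.5 FPKM in embryos (log2 change 0.63, adjusted p = 0.0064, limma). The model of 2774 bases had 54.9, 56.2, 52.9, 62.3 and 82.3 FPKM in eggs and 90.6, 87.4, 109, 103 and 62.3 FPKM in embryos (log2 change 0.54, adjusted p = 0.028, limma), a call that was lost without egg replicate 1, 2 or 3 or embryo replicate 1, 3 or 4 (adjusted p of 0.052 to 0.066) and with the replicate block (0.074). Its antisense neighbour of 1082 bases moved with it, from 29.2 ± 11 to 57.4 ± 9.54 FPKM (log2 change 1.01, adjusted p = 0.0036, limma). The family shares above count both models of this locus. In the technical libraries these 2 models lay at 46.3, 66.2 and 60.4 and 18.3, 37.8 and 28.8 FPKM, within or below the eggs, and with those libraries in place of the embryos both log2 changes turned slightly negative.

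eIF4G1, the general scaffold, had 2 models with nearly the same log2 change. The model of 5084 bases had 6.01, 9.06, 7.4, 8.44 and 10.9 FPKM in eggs and 13, 9.23, 12.4, 12.8 and 10.9 FPKM in embryos (log2 change 0.45, adjusted p = 0.057, limma), and the model of 4916 bases 6.1 ± 1.89 and 8.43 ± 0.685 FPKM (log2 change 0.45, adjusted p = 0.081, limma). Both passed without egg replicate 5, the first also without embryo replicate 2 and the second without egg replicate 3, at adjusted p of 0.031 to 0.043. With the technical libraries in place of the embryos their log2 changes were -0.31 and -0.26. eIF4G3 was scarce. Its model of 6288 bases had 0.13, 0.227, 1.91, 0.336 and 0.204 FPKM in eggs and 2.23, 3.59, 4.78, 2.46 and 2.01 FPKM in embryos (log2 change 1.42, adjusted p = 0.0026, limma), so that every embryo lay above even the high value of egg replicate 3. The model of 6026 bases stayed below 1 FPKM in every library, and of 2 antisense models of 452 bases, 1 was at 0 throughout and the other had 3 recovered reads in eggs and 1 in embryos.

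eIF3, the largest initiation factor, had 30 models of 13 subunits after the models of other genes were left out. Of the 27 tested, 9 were higher in embryos and 4 in eggs, or 33.3% and 14.8%, beside 31.6% and 25.2% of all gene models. Among the rising subunits were eif3j, which sits loosely in the complex near the decoding site, and eif3h, a subunit with an MPN domain. The eif3j model of 2389 bases had 3.26, 5.22, 7.96, 7.95 and 6.54 FPKM in eggs and 25, 18.7, 21.8, 23.8 and 33.7 FPKM in embryos (log2 change 1.86, adjusted p = 5.8e-05, limma), and that of 881 bases 26.3, 34.7, 11.2, 25.6 and 26.6 FPKM and 74, 72.7, 85.8, 81.5 and 84.9 FPKM (log2 change 1.72, adjusted p = 0.00014, limma). Both eif3h copies rose by more than 2-fold, from 44.7 ± 6.2 to 122 ± 22.7 FPKM in the model of 1133 bases (log2 change 1.41, adjusted p = 2.7e-05, limma) and from 46.4 ± 15.9 to 114 ± 29.9 FPKM in that of 1774 bases (log2 change 1.31, adjusted p = 0.00082, limma). The cap-contacting subunit eif3d rose from 35 ± 4.81 to 74.6 ± 11.5 FPKM (log2 change 1.07, adjusted p = 0.00018, limma). For eif3l, which forms a peripheral pair with eif3k, the models of 3460 and 1890 bases had log2 changes of 1.01 and 0.92 (adjusted p = 0.00036 and 0.025), the second of which was lost without egg replicate 2, 4 or 5 or embryo replicate 1, 4 or 5 (adjusted p of 0.051 to 0.064).

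Its partner eif3k went the other way. The eif3k model of 1514 bases fell from 48.1, 34.3, 46.6, 32 and 33.9 FPKM in eggs to 13.3, 11.3, 20.5, 13.6 and 14.5 FPKM in embryos (log2 change -1.36, adjusted p = 0.00011, limma). The other copy, of 819 bases, had 31.9 ± 12.6 and 19.5 ± 7.2 FPKM (log2 change -0.68, adjusted p = 0.058, limma), and passed without egg replicate 3, egg replicate 5 or embryo replicate 5 (adjusted p of 0.018 to 0.048). The subunit eif3f fell from 169.9, 149, 166, 157 and 127 FPKM to 89.9, 88.9, 118, 68.2 and 62.8 FPKM (log2 change -0.87, adjusted p = 0.0018, limma). A model of 1271 bases listed with eif3f, named c1orf192 in the gene model file, had a log2 change of 0.40 and passed without egg replicate 1 alone (adjusted p = 0.048). The core subunit eif3c fell in its model of 6128 bases, at low levels of 2.62, 3.77, 1.65, 2.14 and 2.99 FPKM in eggs and 1.01, 1.8, 1.19, 1.06 and 0.79 FPKM in embryos (log2 change -0.73, adjusted p = 0.019, limma). A model of 3097 bases on the opposite strand of this locus had 10.4 ± 5.19 and 6.95 ± 0.904 FPKM (log2 change -0.38, adjusted p = 0.33, limma) and passed without egg replicate 1 (adjusted p = 0.028). The eif3c model of 2739 bases, on another scaffold, had 8.51 ± 4.6 and 10.3 ± 3.7 FPKM (log2 change 0.37, adjusted p = 0.46, limma). Summed by first name, eif3c had no call (log2 change -0.21, adjusted p = 0.44, limma).

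The subunit eif3m, highest of all subunits in eggs, fell in 1 copy. Its model of 1239 bases (scaffold 000074352, bases 4027138 to 4048498, minus strand, 11 exons) had 336, 272, 332, 293 and 230.2 FPKM in eggs and 101, 109, 127, 78.2 and 78.3 FPKM in embryos (log2 change -1.57, SE 0.18, adjusted p = 2.2e-05, limma). Its model of 2147 bases (scaffold 000051988, bases 3417327 to 3438156, plus strand, 11 exons) had 76.3, 98.5, 132, 94.4 and 78.4 FPKM in eggs and 119.9, 108, 120.0, 101 and 102 FPKM in embryos (log2 change 0.22, adjusted p = 0.27, limma).

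The core subunits eif3b and eif3i had no call with all libraries. Summed over their models, those of other genes left out, eif3b had 42.7 ± 7.2 and 36 ± 2.39 FPKM and eif3i 65.8 ± 16.4 and 57.5 ± 8.74 FPKM. None of these models passed, except the eif3b model of 3683 bases without egg replicate 5 (log2 change -0.42, adjusted p = 0.032). A model of 2874 bases listed with eif3i, named hnrnpa1 in the gene model file, was higher in embryos (log2 change 0.79, adjusted p = 0.0037, limma). The largest subunit eif3a was the lowest at both stages, with 9.53 ± 3.63 and 13.5 ± 3.34 FPKM over its 2 models. The eif3a model of 4407 bases passed (log2 change 0.74, adjusted p = 0.047, limma) but lost the call without any of egg replicates 1, 3 and 4 or embryo replicates 1 to 4 (adjusted p of 0.056 to 0.11). The 2 further models listed as eif3a are named ncl, the nucleolar protein nucleolin, and rose by 2.26 and 2.69 log2 units. Counted with them, eif3a would rise by 2.08 log2 units by first name, against 0.51 (adjusted p = 0.12) without them. The highest subunit in embryos was eif3e, with 259 ± 27 FPKM over its 2 models.

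**Figure D4:**
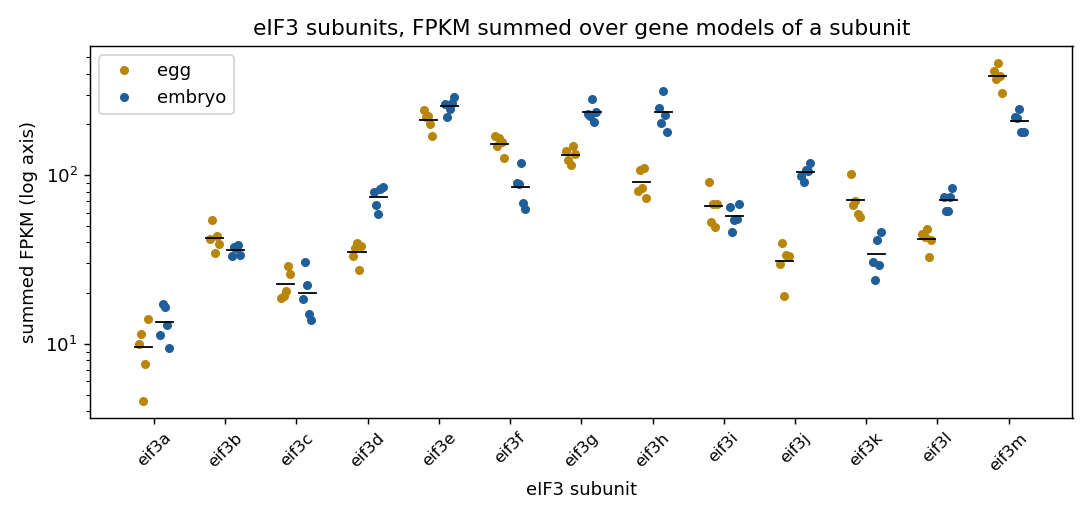
FPKM summed over the gene models of each eIF3 subunit (y axis, log scale) in the 5 eggs and 5 embryos, 1 point per library, with bars at the group means. Models that the gene model file names as another gene are left out. The subunits eif3d, eif3g, eif3h, eif3j and eif3l are higher in every embryo than in any egg, and eif3f, eif3k and eif3m are lower in every embryo.

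Same-named copies were then compared within each library, since both copies of a pair share the library and its scaling. By the first name of the expression table, 14 member pairs could be tested and 3 changed in balance, beside 35.7% of all 3336 pairs. The clearest was eif3m, where the model of 2147 bases held 24.7% (18.5% to 28.4%) of the pair in eggs and 53.1% (48.5% to 56.6%) in embryos (difference between the copies' log2 changes 1.79 log2 units, SE 0.17, adjusted p = 2.2e-05, limma). The technical libraries gave 59.4% to 60.7%. The pair of eif4e1b is described above. For eif3e, the model of 1709 bases held 14.4% (8.7% to 17.7%) of the pair in eggs and 9.6% (7.88% to 12%) in embryos (difference between the copies' log2 changes -0.63 log2 units, SE 0.22, adjusted p = 0.046, limma). That call lay near the threshold and was lost without any 1 of 8 of the 10 libraries (adjusted p of 0.074 to 0.11), the exceptions being egg replicate 1 and embryo replicate 4, while the difference stayed between -0.82 and -0.53 log2 units. Neither eif3e copy passed alone in all libraries, with 221, 189.8, 186, 165 and 146 FPKM in eggs and 237, 198, 227, 237 and 269.9 FPKM in embryos for the larger model of 1587 bases (log2 change 0.37, adjusted p = 0.051, limma), which passed without egg replicate 1 or embryo replicate 2 (adjusted p of 0.026 to 0.038).

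With the names of the gene model file, 25 member pairs could be tested and 8 changed in balance, beside 35.9% of all 4115 pairs. Of the 8, 6 have their copies on different scaffolds, and the eif1 and eif4a2 pairs are neighbours on 1 scaffold. The fits with these names were not repeated with libraries left out, so the calls of eif4h, eif4b and eif3g below have no such check. The eif4h model of 965 bases held 5.8% (3.24% to 7.79%) of its pair in eggs and 22.6% (17.4% to 27.2%) in embryos (difference between the copies' log2 changes 2.19 log2 units, SE 0.27, adjusted p = 9.3e-05, limma). For eif4b the model of 2883 bases held 32.2% (11% to 52.3%) and 59.3% (54.2% to 64.6%) (difference between the copies' log2 changes 1.53 log2 units, SE 0.42, adjusted p = 0.014, limma). For eif3g, an RNA-binding subunit of eIF3, the model of 1285 bases held 44% (33.7% to 56.6%) and 30.3% (26.9% to 33.6%) (difference between the copies' log2 changes -0.84 log2 units, SE 0.23, adjusted p = 0.015, limma). The technical libraries gave 16.3% to 18.8% for eif4h, 37.5% to 65.3% for eif4b and 30.4% to 43.1% for eif3g. In the eif3g pair the other copy, of 1021 bases, rose from 74.2 ± 14.7 to 165 ± 22 FPKM. The copies of eif3h held even shares at both stages, 49.99% (37.9% to 62%) and 51.9% (48.7% to 53.4%) for the model of 1133 bases (difference between the copies' log2 changes 0.11 log2 units, SE 0.23, adjusted p = 0.75, limma).

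**Figure D5:**
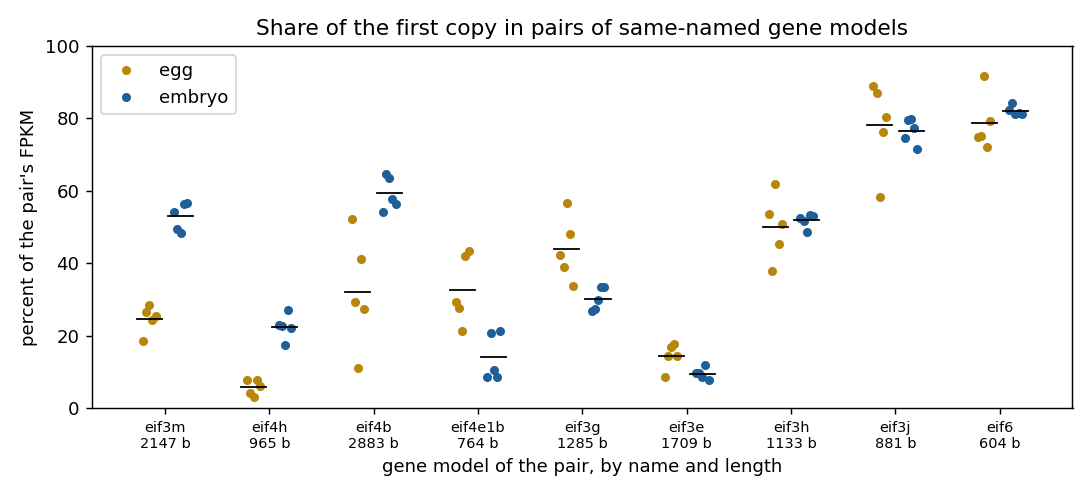
Share of 1 copy in the summed FPKM of a pair of same-named gene models (y axis, percent), in 5 eggs and 5 embryos, 1 point per library with bars at the group means, for 9 pairs named on the x axis by the copy shown and its length in bases. The points of eggs and embryos are apart for eif3m and eif4h and, narrowly, for eif4b and eif3g. They overlap for eif3e, eif3h, eif3j and eif6 and, barely, for eif4e1b.

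Summed by first name, 16 of 44 factors were higher in embryos and 5 in eggs, beside 32.9% and 28.9% (61.9% in all) of 10316 names. With the names of the gene model file the counts were 16 and 7, beside 33.9% and 29.0% (62.9% in all) of 9939 names. The factors lower in embryos under both were eif3f, eif3k, eif3m, eif4e3 and eif4ebp2. The sum of eif4h turned with the names, from a log2 change of 1.14 by first name, which leaves out the model of 711 bases, to -0.77 with both copies (adjusted p = 0.00033 and 0.0021, limma). That of eif3c went from -0.21 by first name to -1.72 with the names of the gene model file (adjusted p = 0.44 and 0.0085, limma). The second sum takes in gene models outside the members. The 4 eif3c members, all so named in the gene model file, summed to 22.7 ± 4.58 FPKM in eggs and 20 ± 6.72 FPKM in embryos. With the technical libraries in place of the embryos, the sum by first name rose by 0.52 log2 units. Among members that reached 1 FPKM in all libraries of a stage, the coefficient of variation (SD as a percent of the mean) had a median of 29.8% over 86 models in eggs, the same as the 29.8% of all 12919 gene models. In embryos the medians were 18.9% over 100 members and 25.5% over all 15804 gene models. Members and all gene models were not matched by level, so the difference in embryos describes no trait of the members.

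Finally, other regulators of translation were compared, from a list of 35 genes, of which 30 matched 68 gene models. Of the 60 tested, 23 were higher in embryos and 14 in eggs, beside 31.6% and 25.2% of all gene models. Of the 23, 5 are named as another gene in the gene model file. The median log2 change of the 60 was 0.46, beside 0.12 over all gene models. The strongest falls were in dohh, the enzyme that completes the hypusine of eIF5A, from 157 ± 30.4 to 22.5 ± 5.53 FPKM (log2 change -2.76, adjusted p = 7.4e-07, limma), and in 1 copy of mcts1, a partner in ribosome recycling and reinitiation, from 114 ± 17.9 to 29 ± 6.04 FPKM (log2 change -1.95, adjusted p = 3.6e-06, limma). The eIF2 kinase eif2ak3, known as PERK, fell from 13.6 ± 2.63 to 3.28 ± 0.793 FPKM in its model of 7170 bases (log2 change -1.77, adjusted p = 2.2e-05, limma). The eIF4E kinase mknk1 fell from 35.8 ± 13.8 to 11.2 ± 3.26 FPKM (log2 change -1.55, adjusted p = 0.00089, limma). Of the 4 largest rises, 3 were models that the gene model file names egflam, khdrbs1 and c9orf64 in place of a listed gene. The fourth was pabpc4, a cytoplasmic poly(A)-binding protein, from 2.48 ± 0.613 to 13 ± 2.81 FPKM (log2 change 2.01, adjusted p = 9.9e-06, limma).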

How the data were processed

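RNA of single eggs and embryos was depleted of rRNA, and single-end reads were mapped with gmap to the JGI 7.1 scaffolds. The authors deposited FPKM per gene model, computed with Cufflinks 2.1.1 over gene models with 1 transcript per locus, and, in a separate table, FPKM of merged profiles per stage. The labels' processing notes also name CASAVA 1.8.2, SAMtools 0.1.18 and Cuffdiff. Transcript lengths and coordinates (1-based) are as deposited, and strand use in counting is not given in the sources used here. Since FPKM are not counts, log2(FPKM + 1) was fitted with limma 3.58.1 (R 4.3.3, eBayes with a trend) on the 19373 gene models that averaged 1 FPKM or more across the 10 single libraries, with Benjamini-Hochberg adjustment over all of them and a threshold of 0.05. A log2 change on this scale understates the change of models low in every library of a stage. It can overstate that of models at 0 in only some libraries, such as the eif2s1 model of 307 bases. The log2 change of that model was 2.31, while its embryo mean was 1.78 times its egg mean. FPKM were also summed by name, and the within-library difference of 2 same-named copies was fitted in the same way. Errors given as ± are SD over 5 eggs or 5 embryos.

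Read numbers were worked out from the step between low FPKM values, of which 88.4% to 91.8% came out whole per library, and were used for depth, for counting intervals and for a floor of 3 reads over a group. They cover counting error only. The tests were tried on simulated data with 200 changed features, in which 25% of gene models changed by 1 log2 unit and 70% of those changed by 2 were recovered, with 9 of 104 calls false. For sums by name these shares were 51% and 93%, and for copy pairs 42% and 86%. The simulation changed only 200 of 19373 gene models, while 56.8% were called in the data. Its shares therefore do not give the recovery in the data. Named members were, per direction, the 8 with the largest change among those called, without overlap and averaging 5 FPKM or more, the 5 highest per stage, all models of eIF2, eIF4E, eIF4A, eIF4G and 4E-BP, pairs past the test of balance and the lowest and highest subunits of eIF3 and eIF2B. Among related regulators the 4 largest changes per direction were named, and other members were named after their values were seen, to complete a factor. The members and lists were chosen with earlier results of these data known. Alternatives in filter, pseudocount, scaling, variance model, replicate block, names, membership, transcript length, libraries left out, technical libraries and merged profiles were tried.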

Additional observations from a re-analysis of the deposited data

Results flagged for a closer look

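In 9 of 124 groups of 5 libraries, the highest library stood apart from the other 4 by more than 0.71 of the group's range. By chance alone such gaps are found now and then among this many groups. Embryo replicate 5 stood apart in 3 gene models. It held 16.1 FPKM of the eif4e1b model of 764 bases, with the nearest embryo at 6.28 FPKM, 33.2 FPKM of the eif2s2 model of 622 bases, with the nearest at 20.2 FPKM, and 58.9 FPKM of the eif4e model of 1518 bases, with the nearest at 35.8 FPKM.

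Egg replicate 3 was high in the eif4g3 model of 6288 bases, at 1.91 FPKM against 0.336 FPKM in the next egg. Egg replicate 4 held 70.1 FPKM of the eif2s1 model of 307 bases, against 16.2 FPKM in the next egg, and the single read of the eif2s2 model of 704 bases, at 0.984 FPKM against 0.000577 FPKM. The remaining cases rest on a few reads. The eif2s2 model of 113 bases was at 38.0 FPKM in embryo replicate 1, and the eif4g3 model of 452 bases was at 5.38 FPKM in egg replicate 3 and at 2.83 FPKM in embryo replicate 2, with all other libraries of the group at 0.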

How the results depend on the processing

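The counts of member gene models, 41 higher in embryos and 14 in eggs, stayed within 1.5 times under every alternative run, with 36 to 46 and 12 to 19. Leaving out 1 library at a time gave 37 to 44 and 13 to 17, 14 to 17 and 4 to 6 factors by name (16 and 5 with all), 2 to 4 copy pairs (3 with all), 20 to 25 and 12 to 14 related regulators (23 and 14 with all) and 10055 to 11267 gene models in all (11002 with all). Factors higher in eggs were 8 with the technical libraries in place of the embryos, and the copy pairs were 8 with the names of the gene model file. The fit with the technical libraries took all 3 as separate embryos, though they may stand for 1 replicate. Its counts and calls therefore do not measure variation between embryos. The models of eif4g2 of 2774 and 1082 bases turned to log2 changes of -0.094 and -0.027 with the technical libraries, and the cause was not tested.

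With the replicate block, 40 and 16 members, 16 and 5 factors, 2 copy pairs and 10661 gene models in all passed. The same-number correlations ran from -0.02 to 0.07 and the labels do not tie eggs to embryos by number, so the block is a check only. Median-of-ratios scaling moved the median of all gene models by 0.09 log2 units and gave 46 and 13 members, with 0 called members changing sign. Without egg replicates 3 and 5, a choice made after seeing the data like those of names, membership and length, 43 and 19 passed. For the named members, 1028 of 1109 alternative values stayed on their side of the threshold or within the spread, of which 14, all without a call, changed sign, 45 passed newly, 32 no longer passed, 2 moved and 2 reversed. The 2 that moved were log2 changes of the merged profiles. At 1366812 to 3817720 reads per single library, changes of gene models with a few reads could not be measured. Stage and library kit cannot be told apart.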

Other observations

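Some gene models that were highest in embryo replicate 5 among the embryos were also high in the technical libraries. How many members did so was not counted. The eif4e model of 2448 bases was at 107 FPKM in embryo replicate 5 and at 123, 101 and 88.1 FPKM in the technical libraries, against 37.0 to 61.4 FPKM in the other 4 embryos. The eif1ad model was at 71.9 FPKM in embryo replicate 5 and at 118, 72.4 and 90.0 FPKM in the technical libraries, against 17.6 to 42.6 FPKM in the other 4. The eif2s2 model of 622 bases went the other way, but its technical values rest on 11 recovered reads in all. It was at 33.2 FPKM in embryo replicate 5 and at 21.5, 3.54 and 0.834 FPKM in the technical libraries, against 17.3 to 20.2 FPKM in the other 4. These models were chosen after their values were seen.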
